A study of Mus musculus with 12 samples.

Results

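The long noncoding RNAs described here are 10 genes chosen by name, out of 24454 gene IDs measured: the nuclear RNAs Malat1 and Neat1, the snoRNA host genes Gas5, Snhg1, Snhg5, Snhg12 and Snhg15, and the imprinted RNAs Kcnq1ot1, H19 and Meg3. Each had 1 row in the deposited table, and all 10 rows were found by their gene symbol. RNA was measured in 3 mouse cell lines that the series calls mesenchymal breast cancer cells, MT∆Ecad, Py2T LT and PyMT-1099 LT, after knockdown of Nrf2, the transcription factor encoded by Nfe2l2 that switches on antioxidant and detoxification genes. MT∆Ecad came from mammary tumours of MMTV-Neu mice, and Py2T LT and PyMT-1099 LT came from mammary tumours of MMTV-PyMT mice. In both strains the MMTV promoter drives the oncogene mainly in mammary epithelium. Cells of each line received a Dharmacon siRNA against Nrf2 (siNrf2) or a non-targeting control siRNA (siCtl) for 48 hours. The 6 groups hold 2 libraries each, so 12 libraries were compared, and the series text calls the duplicates biological. Nothing in the labels says that the duplicates were separate cultures, so p-values measure only the spread between these libraries. Each line stands for its tumour model alone. A difference between MT∆Ecad and the other lines cannot be told apart from a difference between the oncogenes. The same holds for the deletion of E-cadherin that the name of MT∆Ecad denotes, and for any other difference in how the lines were made.

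Long noncoding RNAs act as RNA and are not translated into stable proteins. Malat1 collects in nuclear speckles, where splicing factors are stored, and has been studied in mammary tumours of MMTV-PyMT mice. Neat1 is the scaffold around which paraspeckles, another kind of nuclear body, are built, and mice that lack it have a poorly developed mammary gland. The snoRNA host genes carry small nucleolar RNAs in their introns. These guide the chemical modification of ribosomal RNA, while the spliced host transcripts of several such genes are short-lived and start with a tract of pyrimidines like the mRNAs of ribosomal proteins. Kcnq1ot1 is made from the paternal chromosome inside the Kcnq1 gene and silences its neighbours on that chromosome, such as Cdkn1c and Phlda2. H19 and Meg3 are made from the maternal chromosome, abundant in the embryo, and lie next to Igf2 and Dlk1.

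Promoters were taken from the RefSeq table of windows for GRCm38.p6, which run from 250 bases before to 50 bases after an annotated transcription start. Windows were given for 8 of the 10 genes. The 5 snoRNA host promoters are shown because these transcripts had lower mean levels together in siNrf2 cells, and that of Kcnq1ot1 because this RNA differed most between the lines. Capitals mark a cAMP response element (TGACGTCA), an E-box (CACGTG), or the core of an antioxidant response element (TGACNNNGC), the kind of sequence that Nrf2 binds.
Gas5, chr1:161034916-161035215, plus strand: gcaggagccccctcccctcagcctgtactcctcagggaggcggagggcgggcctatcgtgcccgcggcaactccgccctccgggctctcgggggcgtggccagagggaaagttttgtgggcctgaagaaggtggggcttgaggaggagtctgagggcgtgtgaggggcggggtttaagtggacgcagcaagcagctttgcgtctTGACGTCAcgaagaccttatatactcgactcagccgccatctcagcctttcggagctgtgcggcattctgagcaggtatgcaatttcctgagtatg
Snhg1, chr19:8723237-8723536, plus strand: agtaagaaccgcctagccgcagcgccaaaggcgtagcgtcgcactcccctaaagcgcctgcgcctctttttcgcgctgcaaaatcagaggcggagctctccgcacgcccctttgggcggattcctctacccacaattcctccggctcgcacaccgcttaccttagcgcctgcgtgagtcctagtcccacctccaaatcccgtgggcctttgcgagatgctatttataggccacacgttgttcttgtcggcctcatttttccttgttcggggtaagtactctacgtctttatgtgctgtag
Snhg5, chr9:88522848-88523147, minus strand: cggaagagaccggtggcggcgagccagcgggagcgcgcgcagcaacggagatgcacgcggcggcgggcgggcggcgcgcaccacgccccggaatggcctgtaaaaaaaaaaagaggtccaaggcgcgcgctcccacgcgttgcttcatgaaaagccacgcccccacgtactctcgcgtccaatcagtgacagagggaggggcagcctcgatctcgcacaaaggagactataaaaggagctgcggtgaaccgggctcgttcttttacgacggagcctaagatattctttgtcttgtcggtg
Snhg12, chr4:132308428-132308727, plus strand: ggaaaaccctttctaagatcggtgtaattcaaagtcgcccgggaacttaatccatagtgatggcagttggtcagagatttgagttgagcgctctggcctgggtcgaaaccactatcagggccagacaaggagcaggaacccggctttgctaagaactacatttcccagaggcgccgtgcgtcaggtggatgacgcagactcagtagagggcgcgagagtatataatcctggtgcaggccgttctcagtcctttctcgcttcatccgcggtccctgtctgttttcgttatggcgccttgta
Snhg15, chr11:6528711-6529010, minus strand: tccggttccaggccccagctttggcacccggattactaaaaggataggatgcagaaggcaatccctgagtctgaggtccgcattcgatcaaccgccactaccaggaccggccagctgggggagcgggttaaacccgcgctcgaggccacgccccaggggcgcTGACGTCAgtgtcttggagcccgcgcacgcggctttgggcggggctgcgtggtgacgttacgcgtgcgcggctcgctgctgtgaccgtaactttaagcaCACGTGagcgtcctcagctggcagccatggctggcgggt
Kcnq1ot1, chr7:143296498-143296797, minus strand: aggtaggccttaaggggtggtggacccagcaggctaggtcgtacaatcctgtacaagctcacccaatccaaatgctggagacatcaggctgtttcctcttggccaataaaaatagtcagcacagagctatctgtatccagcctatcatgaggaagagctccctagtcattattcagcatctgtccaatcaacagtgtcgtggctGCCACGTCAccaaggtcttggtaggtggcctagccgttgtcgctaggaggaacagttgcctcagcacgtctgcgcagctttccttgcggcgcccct
Both strands were searched for 4 motifs, the fourth being the AP-1 site TGANTCA. The antioxidant response element core was found in the window of Kcnq1ot1, on the minus strand relative to the gene and starting at -46 from the transcription start, and in none of the windows of the other 7 genes. It occurred in 12.4% of all 32851 windows. The cAMP response element lay at -46 in the second of the Gas5 windows, at -88 in Snhg15 and at -57 in Meg3, against 1.79% of all windows. The E-box of Snhg15 began at position 12 after the start, and 7.15% of all windows hold one. An AP-1 site was in none of the windows of these genes and in 7.81% of all windows. A C followed by at least 4 pyrimidines, beginning within 10 bases of the start, was present in Gas5, Snhg5, Snhg12 and Meg3, and in 29.7% of all windows. None of these motifs overlapped another, and a match describes the letters only.

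Libraries held 27088970 to 37070635 reads, recovered from the CPM values (reads of a gene per 1000000 reads). CPM is the unit of every level below unless a length is named. Nfe2l2 stood at 50.8 and 54.0 CPM in siNrf2 libraries of MT∆Ecad, against 207.6 and 208.6 CPM in its siCtl libraries. It stood at 21.9 and 24.5 CPM in siNrf2 libraries of Py2T LT, against 89.7 and 83.6 CPM in siCtl, and at 25.8 and 33.3 CPM in siNrf2 libraries of PyMT-1099 LT, against 113.1 and 113.0 CPM in siCtl. The knockdown was thus seen in each line, with log2 fold changes of -1.97, -1.86 and -1.91. Of 12 mesenchymal markers, 12 reached a mean of 1 CPM in MT∆Ecad, 11 in Py2T LT and 10 in PyMT-1099 LT, where Twist1 and Snai2 were at 0. The 12 epithelial markers summed to 1128 to 1295 CPM in MT∆Ecad, 2732 to 3858 CPM in Py2T LT and 3804 to 5442 CPM in PyMT-1099 LT, mostly from Krt8 and Krt18. Epcam was at 16.7 to 30.8 CPM and Cldn4 at 130.0 to 234 CPM in Py2T LT, against 0 and 6.75 to 8.78 CPM in PyMT-1099 LT, and 6 of the 10 tested epithelial markers were higher and 3 lower in siCtl Py2T LT cells than in siCtl PyMT-1099 LT cells. Cdh1 (E-cadherin) was at 0.315 to 0.639 CPM in MT∆Ecad, 12.5 to 18.1 CPM in Py2T LT and 47.8 to 62.1 CPM in PyMT-1099 LT. Of the other cell types checked, immune markers summed to 1.67 to 6.25 CPM, nearly all from Cd68. Adipocyte markers reached 1.92 CPM at most, and of 6 endothelial markers Cdh5 stood at 88.0 to 124 CPM in PyMT-1099 LT, while the other 5, Pecam1, Kdr, Tek, Vwf and Cldn5, were at 0.205 CPM or less in every library. The part of these markers in the results below was not tested.

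The 10 genes were unevenly detected. RNAs that RefSeq calls long noncoding took up 0.341% to 0.496% of each library, and the 10 genes together took 14.4% to 29.0% of that share. Malat1 alone held 5.62% to 21.3% of the long noncoding reads and ranked 1 to 3 among the 669 to 771 such RNAs with a read. Gas5 ranked 4 to 11 and Neat1 4 to 18, whereas Snhg15 ranked 30 to 66. Levels between genes were compared only as CPM per kb of exonic length, taken from GENCODE M21. The mean over the 12 libraries was 77.2 CPM per kb for Malat1, 37.6 for Gas5, 22.3 for Snhg5, 19.4 for Snhg1, 14.6 for Snhg15, 10.5 for Snhg12, 5.37 for Neat1, 0.0422 for Kcnq1ot1, 0.0152 for H19 and 0 for Meg3. By this mean Neat1, with an exonic length of 20.8 kb, ranked below the 5 snoRNA hosts. The ranges over libraries overlapped between Malat1 (29.1 to 144 CPM per kb) and Gas5 (23.6 to 54.1). Those of Gas5, Snhg5 (13.7 to 28.0) and Snhg1 (12.3 to 26.7) overlapped too. The range of Snhg15 (5.99 to 21.9) overlapped those of Snhg5, Snhg1 and Snhg12 (7.93 to 12.7). That of Neat1 (2.68 to 8.42) overlapped those of Snhg12 and Snhg15, so the order by mean does not hold in every library. Reads on intronic sequence or on the long precursors of Kcnq1ot1 and Neat1 may have been counted differently by another annotation, and the counting tool is not given in the sources used here.

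**Figure D1:**
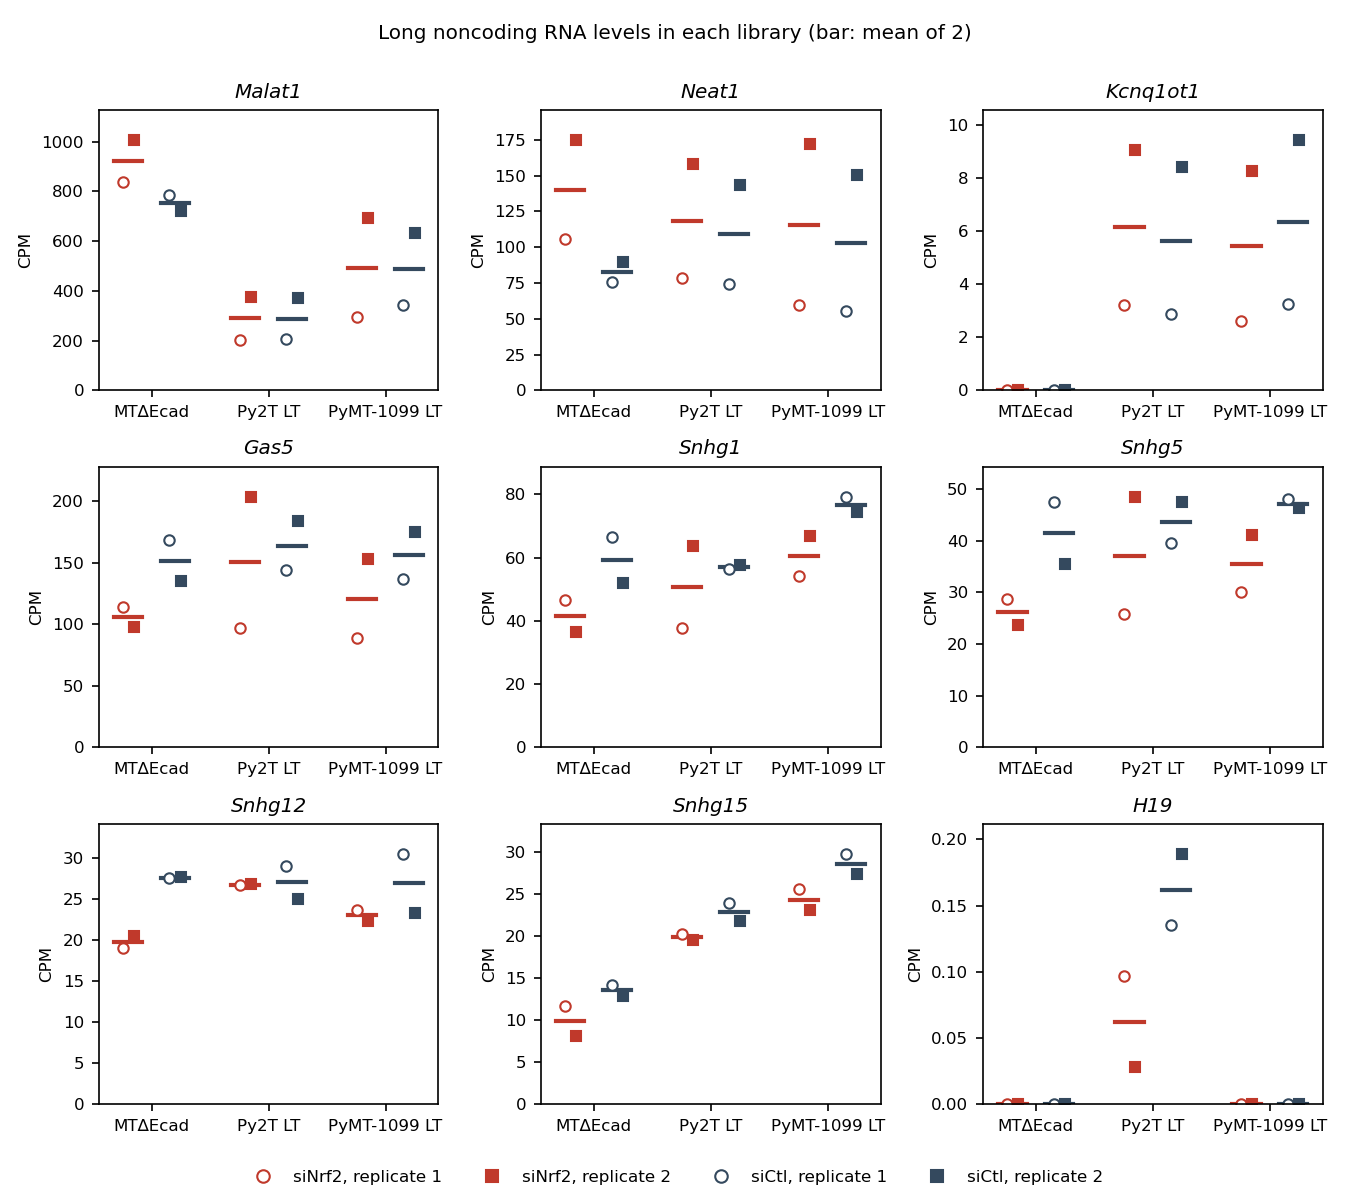
Level of 9 long noncoding RNAs in each of the 12 libraries, in CPM on a linear axis that starts at 0, by line and siRNA; red is siNrf2, dark grey siCtl, open circles replicate 1, filled squares replicate 2, and bars the mean of 2 libraries. Malat1 is highest in MT∆Ecad, Kcnq1ot1 is at 0 there, and in Py2T LT and PyMT-1099 LT replicate 2 lies above replicate 1 for Malat1, Neat1 and Kcnq1ot1 with either siRNA.

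The first comparison asked how the lines differ in siCtl cells. MT∆Ecad had more Malat1 than Py2T LT, less Snhg15 than either other line, and no Kcnq1ot1 reads at all. Gas5, Snhg1, Snhg5, Snhg12 and Neat1 did not pass the test between any pair of lines. Of the 10 genes, 8 had enough reads to be tested (2 or more libraries with a CPM of 1 or above), which left out H19 and Meg3. limma on log2(CPM + 1), with Benjamini-Hochberg adjustment over all 12502 genes tested, called 2 of the 8 between MT∆Ecad and PyMT-1099 LT, where 57.6% of all tested genes were called. It called 3 of the 8 between MT∆Ecad and Py2T LT, against 54.4% of all tested genes. Between Py2T LT and PyMT-1099 LT it called 0 of the 8, against 55.6% of all tested genes, with 0 of the 8 at an unadjusted p under 0.05 and 0 by edgeR and by DESeq2. The share of these genes that differed between lines was thus below the share of all tested genes in all 3 comparisons. With the replicate number as a block shared by all lines, limma also called 2 genes lower in Py2T LT than in PyMT-1099 LT. These were Malat1 (log2 difference -0.75, adjusted p = 0.0458) and Snhg15 (-0.31, adjusted p = 0.0404), beside 61.0% of all tested genes. This block takes the shift between replicates to be the same in every line. In siCtl cells replicate 2 had 1.85 times the Malat1 of replicate 1 in PyMT-1099 LT and 1.78 times in Py2T LT. In MT∆Ecad it had 0.919 times.

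**Figure D2:**
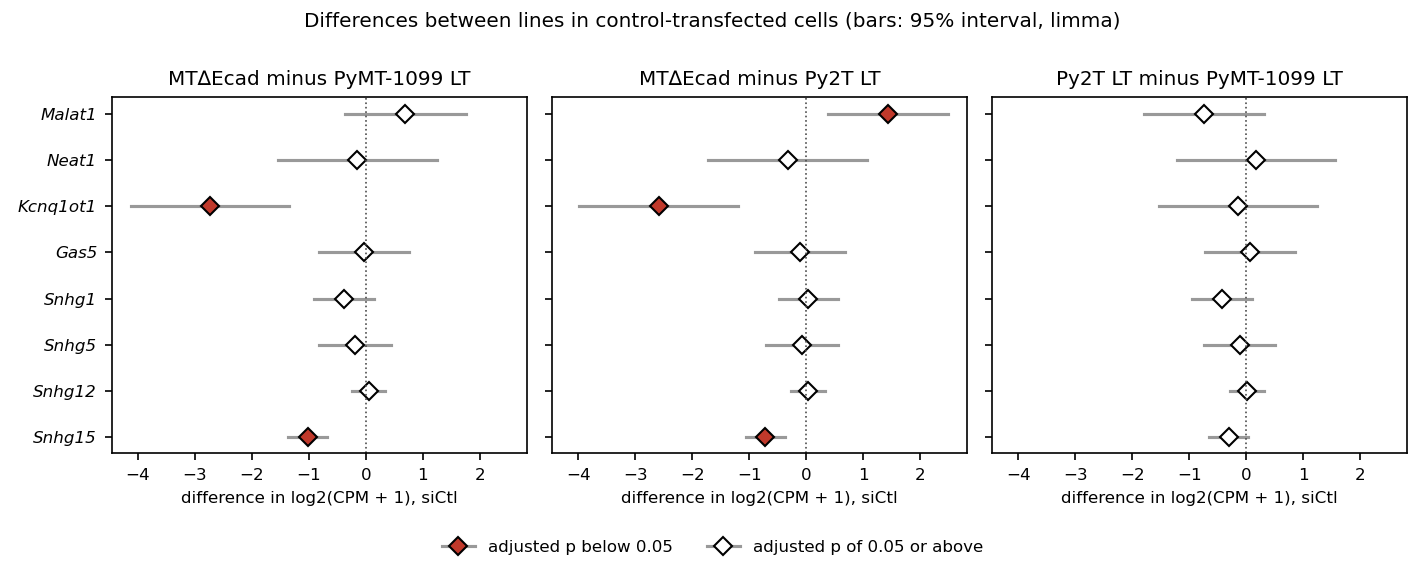
Difference between lines in siCtl cells on the log2(CPM + 1) scale for the 8 genes tested; diamonds are the estimates of limma, grey bars their 95% intervals, and red diamonds have an adjusted p under 0.05. Kcnq1ot1 and Snhg15 lie left of 0 in both panels that involve MT∆Ecad, and Malat1 lies right of 0 in both, past the threshold against Py2T LT.

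The second comparison asked what knockdown of Nrf2 did to these RNAs. In MT∆Ecad the levels of all 5 snoRNA hosts were lower in both siNrf2 libraries than in both siCtl libraries, while Malat1 and Neat1 were higher in both. Snhg12 was the only one of the 8 tested genes that passed the test, at a log2 fold change of -0.46 (adjusted p = 0.0399, limma). In that line 17.3% of all tested genes were called, and 8.42% were called as lower. Groups without overlap were frequent among all tested genes too: 32.8% were lower in both siNrf2 libraries and 32.5% were higher in both, against 5 and 2 of the 8. In PyMT-1099 LT 3 of the 8, Snhg1, Snhg5 and Snhg15, were lower without overlap, against 17.1% of all tested genes. In Py2T LT 1 of the 8, Snhg15, was, against 15.9%.

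None of the 8 was called in Py2T LT, in PyMT-1099 LT, in the mean of the 3 lines or in the test of whether the effect differs between lines. The shares of all tested genes called there by limma were 0.152%, 0.520%, 12.3% and 2.18%. At an unadjusted p under 0.05 the counts of the 8 were 0, 0, 4 and 0, and edgeR and DESeq2 called 0 in each of these comparisons. The sample descriptions number the replicates but do not say that libraries of the same number belong together. The numbers were taken as pairing the libraries, as a hint from the data alone. With the number as a block 6 of the 8 were called in MT∆Ecad, against 42.6% of all tested genes. Of these, 5 fell, namely Gas5, Snhg1, Snhg5, Snhg12 and Snhg15, and Neat1 rose, against 21.2% of all tested genes that fell and 21.4% that rose. The same 6 genes were called in the mean of the lines with the block, against 40.0% of all tested genes. The median log2 fold change of the 8 was -0.45 in MT∆Ecad, -0.10 in Py2T LT and -0.22 in PyMT-1099 LT, beside medians of 0.00, -0.02 and -0.00 for all tested genes. Fewer cells of a kind and less RNA per cell cannot be told apart in these bulk libraries.

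**Figure D3:**
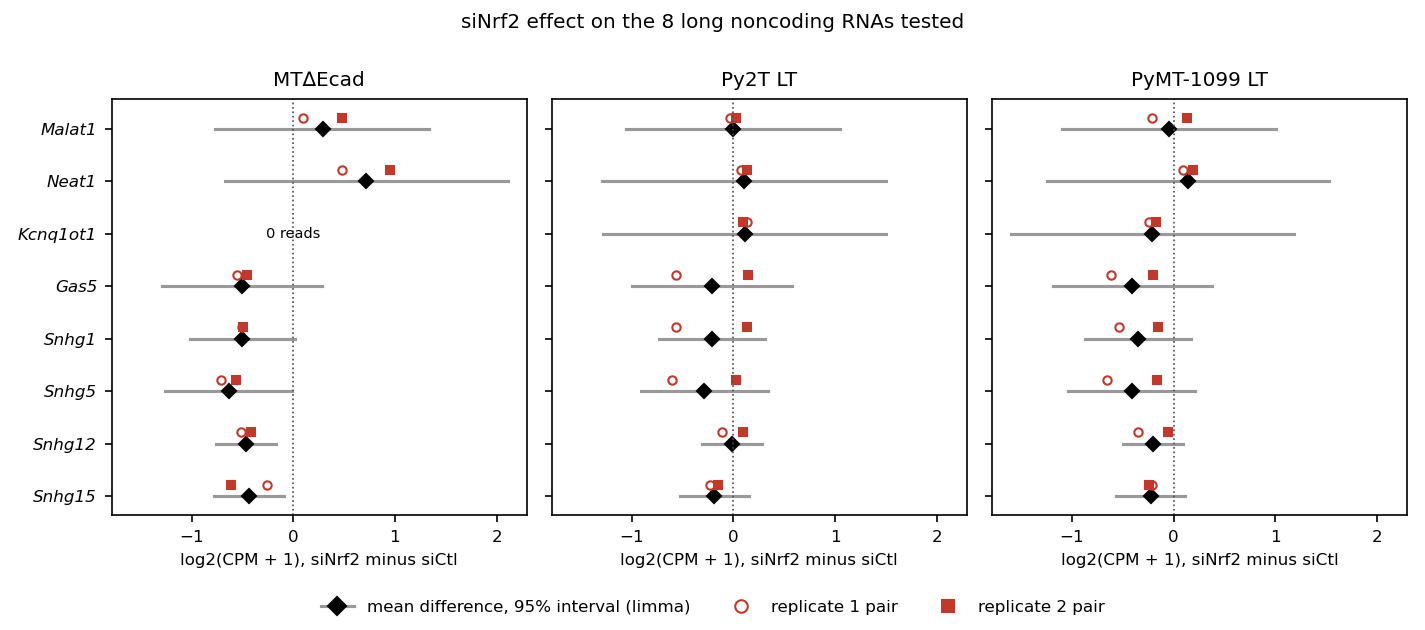
Difference between siNrf2 and siCtl on the log2(CPM + 1) scale in each line for the 8 genes tested; black diamonds are the estimates of limma, grey bars their 95% intervals, and red symbols the 2 pairs of libraries with the same replicate number. The 5 snoRNA hosts lie left of 0 in MT∆Ecad for both pairs, and Neat1 lies right of 0 for all 6 pairs.

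Malat1 lies on chromosome 19 (5795690 to 5802672, minus strand, GRCm38.p6), 22036 bp from Neat1. In MT∆Ecad it had 837 and 1006 CPM in siNrf2 libraries, against 784 and 720.6 CPM in siCtl libraries. Py2T LT had 203 and 376 CPM in siNrf2 libraries, against 208 and 369.8 CPM in siCtl libraries. PyMT-1099 LT had 294 and 694 CPM in siNrf2 libraries, against 342 and 632 CPM in siCtl libraries. The MT∆Ecad libraries were thus all above those of the other lines, and in the other lines replicate 2 exceeded replicate 1 by more than the siRNAs differed. In siCtl cells Malat1 averaged 752 ± 44.9 CPM in MT∆Ecad, against 289 ± 115 CPM in Py2T LT and 487 ± 205 CPM in PyMT-1099 LT (SD, n = 2 each). The log2 difference was 1.44 (SE 0.47) from Py2T LT, with an adjusted p of 0.0265 by limma (0.00214 with the block). It was 0.69 (SE 0.47) from PyMT-1099 LT, with an adjusted p of 0.239 (0.0585 with the block). The call against Py2T LT was lost without replicate 1 of Py2T LT siCtl (1.02, adjusted p = 0.174), without replicate 1 of MT∆Ecad siCtl (1.38, adjusted p = 0.104) and without replicate 2 of MT∆Ecad siCtl (1.5, adjusted p = 0.0816). The siNrf2 effect was 0.29 (SE 0.47, 95% interval -0.77 to 1.34) in MT∆Ecad, with an adjusted p of 0.776 by limma (0.0651 with the block). It was -0.00 in Py2T LT and -0.04 in PyMT-1099 LT. No difference was thus detectable at this spread between libraries.

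Neat1 (chromosome 19, 5824708 to 5845480, minus strand) was higher with siNrf2 in all 6 pairs of libraries with the same replicate number. How many of all tested genes were higher in all 6 pairs was not counted. In MT∆Ecad Neat1 had 106 and 175 CPM in siNrf2 libraries, against 75.4 and 89.8 CPM in siCtl libraries. In Py2T LT it had 78.4 and 158 CPM in siNrf2 libraries, against 74.3 and 144 CPM in siCtl libraries. In PyMT-1099 LT it had 59.3 and 172 CPM in siNrf2 libraries, against 55.7 and 151 CPM in siCtl libraries. In MT∆Ecad the siNrf2 library stood at 140.2% and 194.8% of its siCtl partner, while the 4 pairs of the other lines stood at 105.5% to 114.2%. The log2 fold change in MT∆Ecad was 0.72 (SE 0.62, 95% interval -0.68 to 2.11), and its adjusted p was 0.506, or 0.00168 with the block. Across the mean of the lines the log2 fold change was 0.32, with an adjusted p of 0.619, or 0.00572 with the block. The effect differed between the lines only with the block (adjusted p = 0.0378, against 0.997 without it), a test that called 2377 of the 12502 genes. The effect in MT∆Ecad exceeded that in PyMT-1099 LT by 0.58 (adjusted p = 0.0397 with the block) and that in Py2T LT by 0.61 (adjusted p = 0.0242 with the block). These 2 differences were called in 14.5% and 22.9% of all tested genes with the block.

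Gas5, which takes its name from growth arrest and whose spliced transcript is degraded by nonsense-mediated decay, lies on chromosome 1 (161034601 to 161038539, plus strand). Its level was 114 and 98.1 CPM in siNrf2 libraries of MT∆Ecad, against 168 and 135 CPM in siCtl libraries. In Py2T LT it was 97.1 and 204 CPM in siNrf2 libraries, against 144 and 184 CPM in siCtl libraries. In PyMT-1099 LT it was 88.8 and 153 CPM in siNrf2 libraries, against 137 and 175 CPM in siCtl libraries. The groups overlapped in Py2T LT and PyMT-1099 LT, where replicate 2 was again the higher one. The log2 fold change in MT∆Ecad was -0.51 (SE 0.35), with an adjusted p of 0.383 (0.0406 with the block). Over the mean of the lines it was -0.37 (SE 0.20), with an adjusted p of 0.263 (0.0181 with the block). Without replicate 2 of Py2T LT siNrf2 that mean was -0.55 (adjusted p = 0.0487, no block). RefSeq places 8 snoRNAs in Gas5, and the gene overlaps Zbtb37, so their reads may be mixed.

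Snhg1 and Snhg5 followed a pattern like that of Gas5. Snhg1 (chromosome 19, 8723487 to 8726326, plus strand), the host of 8 annotated snoRNAs, had 46.6 and 36.4 CPM in siNrf2 libraries of MT∆Ecad, against 66.5 and 51.9 CPM in siCtl libraries. In Py2T LT it had 37.9 and 63.7 CPM in siNrf2 libraries, against 56.3 and 57.8 CPM in siCtl libraries. In PyMT-1099 LT it had 54.2 and 66.7 CPM in siNrf2 libraries, against 79.2 and 74.4 CPM in siCtl libraries. Only in Py2T LT did the groups overlap. The log2 fold change in MT∆Ecad was -0.50 (SE 0.23), with an adjusted p of 0.176 (0.039 with the block). Over the mean of the lines it was -0.35 (SE 0.13), with an adjusted p of 0.117 (0.0205 with the block), and without replicate 2 of Py2T LT siNrf2 it was -0.48 (adjusted p = 0.0186, no block). Between lines, Snhg1 in siCtl was lower in Py2T LT than in PyMT-1099 LT by a log2 difference of -0.42 (adjusted p = 0.152), which reached 0.0476 when either siNrf2 library of Py2T LT was left out.

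Snhg5 (chromosome 9, 88521052 to 88522897, minus strand), with 2 annotated snoRNAs, had 28.8 and 23.7 CPM in siNrf2 libraries of MT∆Ecad, against 47.6 and 35.6 CPM in siCtl libraries. Py2T LT had 25.8 and 48.5 CPM in siNrf2 libraries, against 39.6 and 47.6 CPM in siCtl libraries. PyMT-1099 LT had 30.0 and 41.2 CPM in siNrf2 libraries, against 48.0 and 46.3 CPM in siCtl libraries. The siNrf2 libraries of MT∆Ecad stood at 60.5% and 66.7% of their siCtl partners. Its log2 fold change there, -0.64 (SE 0.28), was the largest decrease among the 8 genes, and its adjusted p was 0.153, or 0.0177 with the block. The adjusted p was 0.0472 when either siNrf2 library of Py2T LT was left out. In the mean of the lines the log2 fold change was -0.45 (SE 0.16), with an adjusted p of 0.102 (0.00951 with the block). Without replicate 2 of Py2T LT siNrf2 the mean was -0.59 (adjusted p = 0.0167, no block).

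Snhg12 (chromosome 4, 132308678 to 132311024, plus strand) carries Snora16a, Snora44, Snora61 and Snord99. It had 19.05 and 20.6 CPM in siNrf2 libraries of MT∆Ecad, against 27.6 and 27.7 CPM in siCtl libraries. In Py2T LT it had 26.8 and 26.8 CPM in siNrf2 libraries, against 29.1 and 25.1 CPM in siCtl libraries. In PyMT-1099 LT it had 23.7 and 22.4 CPM in siNrf2 libraries, against 30.5 and 23.4 CPM in siCtl libraries. The MT∆Ecad siNrf2 libraries were the lowest of the 12, and siCtl levels were nearly equal in the 3 lines. In MT∆Ecad Snhg12 averaged 19.8 ± 1.10 CPM with siNrf2 and 27.7 ± 0.0855 CPM with siCtl (SD, n = 2 each), a log2 fold change of -0.46 (SE 0.13, 95% interval -0.76 to -0.17). The adjusted p was 0.0399, or 0.00688 with the block. The call was lost without any 1 of 8 libraries: all 4 of MT∆Ecad (adjusted p 0.128 to 0.175), both siCtl libraries of Py2T LT (0.0503 and 0.0505) and both siNrf2 libraries of PyMT-1099 LT (0.0567 and 0.0568), with log2 fold changes of -0.52 to -0.41. TMM scaling (0.0618), edgeR (0.0707), DESeq2 (0.0571) and no filter on low values (0.0531) also ended it. The log2 fold change was -0.01 in Py2T LT and -0.21 in PyMT-1099 LT, and the effect in MT∆Ecad differed from that in Py2T LT by -0.45 (adjusted p = 0.23, or 0.0476 with the block). In the mean of the lines the log2 fold change was -0.23 (SE 0.08), with an adjusted p of 0.0817 (0.0149 with the block). Leaving out replicate 2 of PyMT-1099 LT siCtl made that mean -0.29 (adjusted p = 0.0428, no block).

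Snhg15 (chromosome 11, 6525591 to 6528760, minus strand), the host of 1 annotated snoRNA, was lower with siNrf2 in all 6 pairs and also set the lines apart. It had 11.6 and 8.13 CPM in siNrf2 libraries of MT∆Ecad, against 14.2 and 12.9 CPM in siCtl libraries. Py2T LT had 20.2 and 19.5 CPM in siNrf2 libraries, against 24.0 and 21.7 CPM in siCtl libraries. PyMT-1099 LT had 25.6 and 23.0 CPM in siNrf2 libraries, against 29.7 and 27.4 CPM in siCtl libraries. The siRNA groups did not overlap in any line, and the lines did not overlap within a siRNA. Of all tested genes 32.8% were lower without overlap in MT∆Ecad, 15.9% in Py2T LT and 17.1% in PyMT-1099 LT. The share of all tested genes that were lower in all 6 pairs was not counted. In siCtl cells it averaged 13.5 ± 0.875 CPM in MT∆Ecad, against 22.8 ± 1.58 CPM in Py2T LT and 28.6 ± 1.63 CPM in PyMT-1099 LT (SD, n = 2 each). The log2 difference was -0.71 (SE 0.15, adjusted p = 0.00295, limma) from Py2T LT and -1.02 (SE 0.15, adjusted p = 0.000272) from PyMT-1099 LT. Between Py2T LT and PyMT-1099 LT it was -0.31 (adjusted p = 0.108), and 0.0424 or 0.0419 without replicate 1 or 2 of MT∆Ecad siNrf2. The siNrf2 effect was -0.44 in MT∆Ecad (adjusted p = 0.08, and 0.00891 with the block), -0.19 in Py2T LT and -0.23 in PyMT-1099 LT. In the mean of the lines it was -0.28 (SE 0.09), with an adjusted p of 0.0652 (0.00659 with the block). Leaving out replicate 1 of MT∆Ecad siNrf2 changed the effect in that line to -0.67 (adjusted p = 0.0204) and the mean to -0.36 (adjusted p = 0.0224), both without the block.

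Kcnq1ot1 (chromosome 7, 143213111 to 143296547, minus strand) had no read in any of the 4 MT∆Ecad libraries, which allows at most 0.0872 to 0.111 CPM per library. In Py2T LT it had 3.23 and 9.04 CPM in siNrf2 libraries, against 2.87 and 8.42 CPM in siCtl libraries. In PyMT-1099 LT it had 2.60 and 8.25 CPM in siNrf2 libraries, against 3.26 and 9.43 CPM in siCtl libraries. In both lines the replicates differed far more than the siRNAs. With 3 reads per library as the limit of a count of 0, the mean of siCtl MT∆Ecad libraries was at least 54.3-fold below that of siCtl Py2T LT libraries. It was at least 61.1-fold below that of siCtl PyMT-1099 LT libraries. These bounds hold for means of 2 libraries, and the lower library of each line alone would give a smaller one. The adjusted p was 0.0057 against Py2T LT and 0.00391 against PyMT-1099 LT (limma). The siNrf2 effect had a log2 fold change of 0.11 (adjusted p = 1) in Py2T LT and -0.21 (adjusted p = 0.982) in PyMT-1099 LT. Kcnq1, on the opposite strand, stood at no more than 0.388 CPM in any library.

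H19 and Meg3, the maternally expressed RNAs, were close to absent. H19 (chromosome 7, 142575530 to 142578146, minus strand) had 15 reads in all, and all of them came from Py2T LT. These were 3 and 1 reads (0.0969 and 0.0279 CPM) in siNrf2 libraries, against 4 and 7 reads (0.135 and 0.189 CPM) in siCtl libraries. Meg3 (chromosome 12, 109540996 to 109571729, plus strand) had 0 reads in all 12 libraries, which allows up to 0.0809 to 0.111 CPM per library. These limits cover counting error only. Neither gene could be tested.

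The partners of these imprinted RNAs were also low. Igf2, the growth factor gene next to H19, was at 0.116 CPM at most, and Dlk1, the protein-coding partner of Meg3, was at 0 in every library. Rian and Mirg, the noncoding neighbours of Meg3, stood at no more than 0.0558 and 0.169 CPM. Cdkn1c, which encodes a cell cycle inhibitor and which Kcnq1ot1 silences in cis, was at 0.0369 CPM or less in MT∆Ecad, 0.865 to 1.30 CPM in Py2T LT and 0 in PyMT-1099 LT. Phlda2, another gene of that cluster, was at 0.0369 CPM or less in MT∆Ecad, 1.27 to 2.13 CPM in Py2T LT and 0.309 to 0.914 CPM in PyMT-1099 LT. Of 16 listed neighbours of the 3 imprinted RNAs, 6 could be tested, and 2 fell in MT∆Ecad: Osbpl5 (-0.39, adjusted p = 0.0363) and Nap1l4 (-0.31, adjusted p = 0.0366), both from the cluster of Kcnq1ot1, against 8.42% of all tested genes that fell. Neither edgeR nor DESeq2 called any of the 6 there, and 3 had an unadjusted p under 0.05 in limma. The median over the 6 was -0.09. Of 23 other imprinted genes, 8 could be tested, and Asb4 (0.58, adjusted p = 0.0256) and Copg2 (0.47, adjusted p = 0.00508) rose in MT∆Ecad, where 17.3% of all tested genes were called. Of these 8, edgeR called 2 and DESeq2 1. In siCtl cells Igf2r, the receptor that clears Igf2, was higher in MT∆Ecad than in Py2T LT by a log2 difference of 1.77, and higher than in PyMT-1099 LT by 2.96. Mest (-2.59) and Snrpn (-2.14) were lower in MT∆Ecad than in Py2T LT. Both were also higher in Py2T LT than in PyMT-1099 LT, by 2.88 and 2.14. Snrpn was at 0 in every library of MT∆Ecad and PyMT-1099 LT, and Mest was higher in MT∆Ecad than in PyMT-1099 LT (0.29).

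The level of the nuclear RNAs depended strongly on the replicate in 2 of the 3 lines, and that of Neat1 also in siNrf2 cells of MT∆Ecad. In Py2T LT and PyMT-1099 LT, replicate 2 had 1.78 to 2.36 times the Malat1 of replicate 1, 1.94 to 2.90 times the Neat1 and 2.80 to 3.18 times the Kcnq1ot1, with either siRNA. Xist, the RNA that coats the inactive X chromosome, had 1.68 to 2.41 times. In the siNrf2 pair of Py2T LT the ratio was 2.10 for Gas5, 1.88 for Snhg5 and 1.68 for Snhg1, whereas over the 4 pairs of these lines Snhg12 was at 0.766 to 1.002 and Snhg15 at 0.900 to 0.963. In MT∆Ecad the ratio for siNrf2 was 1.20 for Malat1 and 1.65 for Neat1, and for siCtl it was 0.919 and 1.19. On the log2(CPM + 1) scale, the 5th to 95th percentile of all tested genes ran from -0.42 to 0.87 between the siNrf2 libraries of Py2T LT and from -0.28 to 0.32 between those of MT∆Ecad. Neat1 differed by 0.72 between these siNrf2 libraries of MT∆Ecad, which is above that range. Replicate 2 of Py2T LT and PyMT-1099 LT also had more reads, 35005191 to 37070635 against 27874077 to 30967721 in replicate 1. Whether depth has a part in the difference between replicates was not tested.

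**Figure D4:**
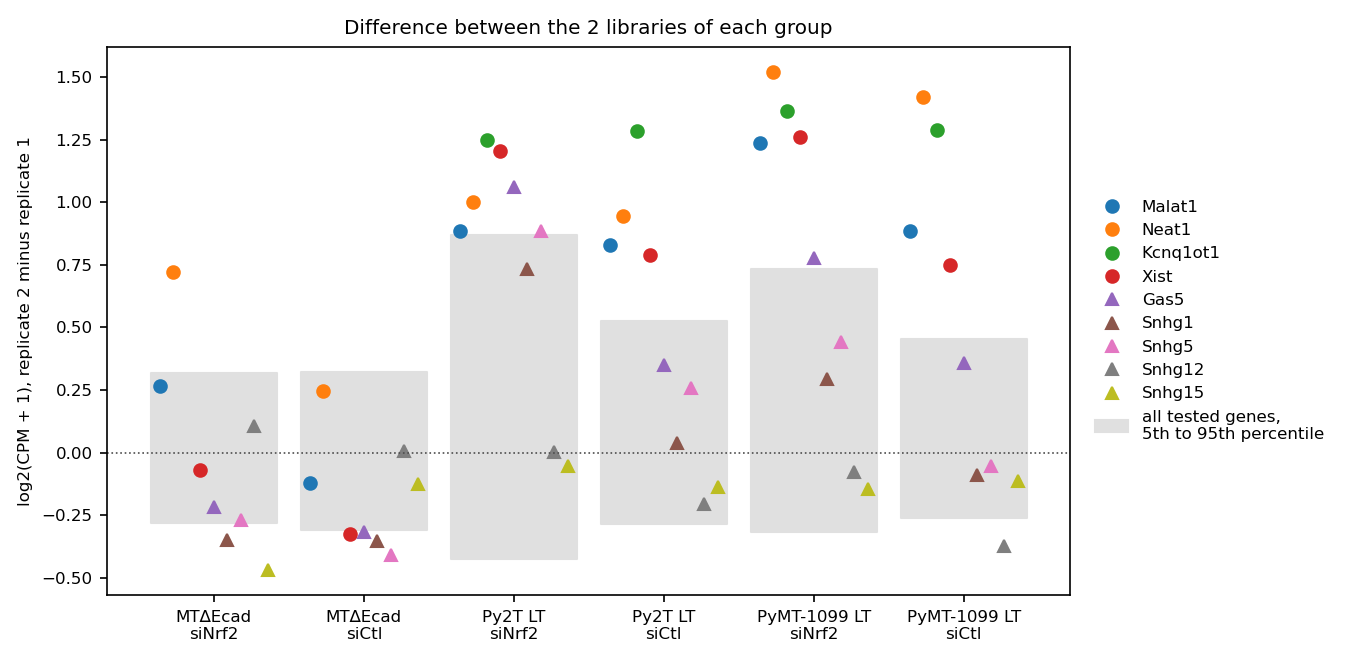
Difference between replicate 2 and replicate 1 of each group on the log2(CPM + 1) scale; circles are Malat1, Neat1, Kcnq1ot1 and Xist, triangles the 5 snoRNA hosts, and grey boxes the 5th to 95th percentile of all tested genes. The circles lie between 0.75 and 1.52 in all 4 groups of Py2T LT and PyMT-1099 LT, above the grey boxes or at their upper edge, while Snhg12 and Snhg15 lie near or below 0. Neat1 also lies above the grey box for siNrf2 in MT∆Ecad.

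The RNAs were also compared across libraries after each line's mean was subtracted. Malat1, Neat1 and Kcnq1ot1 varied together, with Pearson r of 0.951 for Neat1 and Malat1, 0.954 for Kcnq1ot1 and Malat1, and 0.861 for Kcnq1ot1 and Neat1. Gas5, Snhg1 and Snhg5 varied together, with r of 0.984 for Snhg1 and Snhg5, 0.937 for Gas5 and Snhg5, and 0.898 for Gas5 and Snhg1. Gas5 also ran with Kcnq1ot1 (0.748) and Malat1 (0.635), and Snhg15 with Snhg12 (0.685) and Snhg1 (0.668). Snhg12 (-0.626) and Snhg15 (-0.643) ran against Neat1. These r are descriptions over the 12 libraries, which share replicates, depth and siRNA, and the r of Kcnq1ot1 rest on 8 of them, since it was at 0 in the 4 MT∆Ecad libraries.

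Likeness to other genes was measured by Pearson's r of log2(CPM + 1) over the 12 libraries. The genes named had the highest r of all tested genes with a symbol, so high values follow from the choice. They also hold differences between lines and replicates, and a shared function was not tested. Nearest to Malat1 were Mir22hg, Kansl1l and Ccdc186 (r = 0.981 each), and nearest to Neat1 were Zbtb38 (0.922), 6030443J06Rik (0.919) and Zfp607a (0.900). Gas5 ran with Kntc1 (0.982), Zzz3 (0.980) and Ahctf1 (0.977). Snhg1 ran with Rbbp7 (0.959), Rpp30 (0.949) and Npm1 (0.934), and Snhg5 with Dhx15 and Eif2s1 (0.961 each) and Akap8 (0.948). Closest to Snhg12 were the DNA replication and division genes Rfc3 (0.892), Incenp (0.889) and Mcm6 (0.888). Closest to Snhg15 were Etv6 and Trmt6 (0.983 each) and Ddx27 (0.977), and closest to Kcnq1ot1 were Malt1 (0.972), Nlk (0.970) and Fzd3 (0.969). With line means subtracted, the first gene was Ccdc186 (0.982) for Malat1, Zfp420 (0.985) for Neat1, Hdac2 (0.993) for Gas5, Snhg5 (0.984) for Snhg1, Gtpbp10 (0.991) for Snhg5, Ngdn (0.964) for Snhg12, Dnajc24 (0.960) for Snhg15 and Togaram1 (0.980) for Kcnq1ot1.

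Some other snoRNA host RNAs fell in MT∆Ecad as well. Of 16 listed, 14 were tested and 3 fell: Snhg17 (-0.66, adjusted p = 0.0183), Snhg3 (-0.61, adjusted p = 0.0119) and Snhg16 (-0.41, adjusted p = 0.047), against 8.42% of all tested genes. There edgeR called 2 of the 14 and DESeq2 3. Snhg3 had 15.3 and 15.7 CPM in siNrf2 libraries of MT∆Ecad, against 23.4 and 24.9 CPM in siCtl libraries. Snhg17 had 18.5 and 12.6 CPM in siNrf2 libraries of MT∆Ecad, against 26.3 and 23.4 CPM in siCtl libraries. The estimate was negative for 12 of the 14 and their median was -0.29, beside 0.00 for all tested genes. With the block 7 of the 14 fell and 1 rose, against 21.2% and 21.4% of all tested genes. In Py2T LT and PyMT-1099 LT limma, edgeR and DESeq2 called 0 of the 14, with 2 and 1 at an unadjusted p under 0.05 in limma. In siCtl cells, 11 of the 14 were lower in MT∆Ecad than in PyMT-1099 LT, among them Snhg7 (-1.63), Zfas1 (-1.32) and Snhg3 (-1.27), and Snhg18 was higher (3.15), where 57.6% of all tested genes were called. In Py2T LT 10 of the 14 were lower than in PyMT-1099 LT and 0 higher, among them Snhg7 (-1.63), Snhg3 (-1.57) and Zfas1 (-0.69), beside 55.6% of all tested genes. Between MT∆Ecad and Py2T LT 6 were lower and 2 higher in MT∆Ecad, beside 54.4%.

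Most mRNAs of the proteins that bind snoRNAs fell in MT∆Ecad. Of the 10 core proteins of snoRNA particles, 9 fell in MT∆Ecad by limma, against 8.42% of all tested genes, and edgeR and DESeq2 called 7 each. Among the 9 were Dkc1, the pseudouridine synthase (-0.91, adjusted p = 0.0283), and its partners Nhp2 (-0.80, adjusted p = 0.00329) and Gar1 (-0.67, adjusted p = 0.0128). Snu13, which binds the box C/D class, also fell (-0.79, adjusted p = 0.0071). The median of the 10 was -0.66, beside 0.00 for all tested genes. In the mean of the lines 6 of the 10 fell, and all 10 fell with the block, where 12.3% and 40.0% of all tested genes were called in either direction, while in Py2T LT and PyMT-1099 LT alone limma, edgeR and DESeq2 called 0 without it, with 0 and 2 at an unadjusted p under 0.05 in limma. Of 77 listed ribosomal protein mRNAs 74 were tested and 5 fell in MT∆Ecad, led by Rpl12 (-0.57) and Rpl34 (-0.52), with a median of -0.11, against 8.42% of all tested genes. There edgeR called 1 and DESeq2 2 of the 74, and 18 fell with the block, against 21.2% of all tested genes.

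Few mRNAs of the protein partners of Neat1 and Malat1 were called in MT∆Ecad without the block, though most of their estimates were negative. Of 17 paraspeckle proteins 1 fell in MT∆Ecad, Sfpq (-0.32, adjusted p = 0.0188), a protein that holds Neat1 in the paraspeckle, against 8.42% of all tested genes. The median of the 17 was -0.23 and the estimate was negative for 14 of them. With the block 13 fell, against 21.2% of all tested genes. Of 17 speckle and SR proteins 2 fell, Acin1 (-0.38, adjusted p = 0.0139) and Srrm1 (-0.28, adjusted p = 0.0256), against 8.42% of all tested genes. The estimate was negative for all 17, with a median of -0.26. With the block 11 fell, against 21.2% of all tested genes. Of 14 factors of nonsense-mediated decay and the exon junction, the machinery that degrades spliced Gas5, 1 rose, Smg6 (0.64, adjusted p = 0.00858), an endonuclease of the pathway. In that line limma called 17.3% of all tested genes in either direction. The median of the 14 was -0.17 and the estimate was negative for 10 of them. With the block 6 fell and 1 rose, against 21.2% and 21.4% of all tested genes. Of 24 other named long noncoding RNAs 16 were tested, with a median of -0.11 in MT∆Ecad. There limma, edgeR and DESeq2 called 0, and 1 had an unadjusted p under 0.05 in limma. With the block 3 rose and 2 fell, against 21.4% and 21.2% of all tested genes. Over all RefSeq long noncoding RNAs, 329 were tested. In MT∆Ecad limma called 42 (12.8%), 27 higher and 15 lower, beside 17.3% of all tested genes. There edgeR called 20 of the 329 and DESeq2 21.

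Genes beside these RNAs did not follow one direction. Slc3a2, which encodes the heavy chain of amino acid transporters and lies 118 bp from Snhg1, had 274 and 285 CPM in siNrf2 libraries of MT∆Ecad, against 226 and 224 CPM in siCtl libraries. Its log2 fold change of 0.31 had an adjusted p of 0.395, or 0.00404 with the block, and lay on the other side of 0 from that of Snhg1. Wdr74, on the other flank of Snhg1 at 9469 bp and a factor of ribosome assembly, fell by 0.55 on the log2 scale (adjusted p = 0.0157). Trnau1ap, 739 bp from Snhg12, had a log2 fold change of 0.17 (adjusted p = 0.401). Frmd8 (0.05, adjusted p = 0.894), 5494 bp from Neat1, was not called either. Snord47, a snoRNA inside Gas5, stood at 0.378 to 0.907 CPM in MT∆Ecad, 0.194 to 0.977 CPM in Py2T LT and 4.75 to 7.69 CPM in PyMT-1099 LT. Its host Gas5 did not differ between these lines past the threshold (adjusted p 0.823 to 0.943), and reads of the host and of its snoRNA may be mixed, since the strand and feature rules of the counting are not given in the sources used here.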

How the data were processed

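The 12 libraries were made from total RNA after removal of ribosomal RNA, with the TruSeq Stranded Total RNA kit, and read as single reads of 81 nt on an Illumina NextSeq sequencer, per the labels' protocols. STAR was the aligner and mm10 the genome build, per the submitters' processing notes. The tool and annotation that counted the reads, and whether counting used the strand, are not given in the sources used here. The authors deposited CPM for 24454 gene IDs, of which 24374 were matched to symbols of RefSeq GRCm38.p6 and 80 were not. The CPM steps gave back whole reads for 100% of the values, within 0.01 of a read, and 27088970 to 37070635 reads per library. A count of 0 allows up to 3 reads, or at most 0.1107 CPM.

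Levels were tested as log2(CPM + 1) with limma 3.58.1 in R 4.3.3, with 6 group means, a variance moderated toward a trend over mean expression and 6 residual degrees of freedom. The 12502 genes for which 2 or more libraries reached a CPM of 1 were tested two-sided, with Benjamini-Hochberg adjustment over all of them and a threshold of 0.05. Fold changes on this scale understate the change of low genes. Alternatives were a pseudocount of 0.1, no filter, TMM scaling, edgeR 4.0.16 and DESeq2 1.42.0 on the recovered reads, the replicate number as a block and leaving out each library. For siNrf2 effects the block was the replicate number within each line, which left 3 residual degrees of freedom. For differences between lines it was a single shift between replicates, shared by all lines. Among all tested genes edgeR called 1600 in MT∆Ecad, 6 in Py2T LT and 13 in PyMT-1099 LT. Same-numbered libraries deviated together from their group means across genes, with r of 0.625 in MT∆Ecad, 0.846 in Py2T LT and 0.778 in PyMT-1099 LT, so the numbers were taken as pairing the libraries, as a hint from the data. The tests were checked on simulated data with 200 changed genes in MT∆Ecad. There limma recovered 13% of the 1.5-fold changes and 75% of the 2-fold changes, and 8.33% of its calls were unchanged genes. For edgeR these values were 12%, 74% and 6.52%, and for DESeq2 40%, 83% and 22.15%. The simulated libraries were independent of each other, and limma called 96 genes in them, against 2164 in the data. These rates thus need not hold for the data, and the block was not simulated. A gene that was not called may thus still have changed by 1.5-fold.

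The 10 genes and the gene lists were chosen with earlier results of these data known. Named besides them were the 3 genes most like each tested gene, up to 4 called genes of each list by size of change, and the genes that overlap or lie nearest, some of which are not reported here; Xist, Cdkn1c, Phlda2, Igf2, Dlk1 and Snord47 were described after their values were seen.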

Additional observations from a re-analysis of the deposited data

How the results depend on the processing

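With 2 libraries a group, limma on all 12 libraries without the block called the siNrf2 effect for Snhg12 in MT∆Ecad alone among the 8 genes, and other effects passed with the block or with 1 library left out. Of 63 results for single genes, 63 kept their direction and their side of the threshold with a pseudocount of 0.1, 62 with no filter, 59 with TMM scaling, 59 with edgeR, 58 with DESeq2 and 49 with the replicate block, under which the other 14 became called. The causes were not tested. In MT∆Ecad the count of called genes among the 8 was 0 with no filter, TMM scaling, edgeR and DESeq2, and 6 with the block. With the block it was 6 for the mean of the lines, 1 for the difference of the effect between lines, 2 between Py2T LT and PyMT-1099 LT, 1 for the effect in MT∆Ecad minus that in PyMT-1099 LT and 2 for the effect in MT∆Ecad minus that in Py2T LT, while no other count among the 8 moved. Leaving out a library gave counts of 0 to 2 in MT∆Ecad, 0 in Py2T LT, 0 in PyMT-1099 LT, 0 to 3 in the mean, 0 for the difference between lines, 2 between MT∆Ecad and PyMT-1099 LT, 2 to 3 between MT∆Ecad and Py2T LT, and 0 to 1 between Py2T LT and PyMT-1099 LT.

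Some log2 differences near 0 changed sign. The Malat1 effect in PyMT-1099 LT was 0.00851 with edgeR and 0.0317 with DESeq2. The effect in Py2T LT was 0.0141, 0.0205 and 0.0311 for Malat1, and 0.00519, 0.0042 and 0.0147 for Snhg12, with TMM scaling, edgeR and DESeq2. Gas5 between MT∆Ecad and PyMT-1099 LT was 0.000952 with TMM scaling and 0.0102 with DESeq2. Leaving out a library also turned signs, and the ranges follow. In Py2T LT the effect ran from -0.446 to 0.44 for Malat1, -0.395 to 0.606 for Neat1, -0.737 to 0.322 for Gas5, -0.579 to 0.156 for Snhg1, -0.73 to 0.156 for Snhg5, -0.114 to 0.0914 for Snhg12 and -0.531 to 0.753 for Kcnq1ot1. In PyMT-1099 LT it ran from -0.659 to 0.576 for Malat1, -0.62 to 0.9 for Neat1 and -0.891 to 0.472 for Kcnq1ot1. In the mean of the lines it ran from -0.125 to 0.287 for Malat1 and -0.26 to 0.194 for Kcnq1ot1. Between MT∆Ecad and PyMT-1099 LT the difference ran from -0.865 to 0.554 for Neat1, -0.217 to 0.141 for Gas5, -0.396 to 0.0133 for Snhg5 and -0.138 to 0.233 for Snhg12. Between MT∆Ecad and Py2T LT it ran from -0.798 to 0.145 for Neat1, -0.283 to 0.0676 for Gas5, -0.136 to 0.218 for Snhg1, -0.279 to 0.13 for Snhg5 and -0.0696 to 0.136 for Snhg12. Between Py2T LT and PyMT-1099 LT it ran from -0.539 to 0.881 for Neat1, -0.109 to 0.249 for Gas5, -0.247 to 0.0131 for Snhg5, -0.171 to 0.199 for Snhg12 and -0.789 to 0.501 for Kcnq1ot1.

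Over all tested genes, the counts called in MT∆Ecad, Py2T LT, PyMT-1099 LT, the mean and the difference between lines were 2164, 19, 65, 1532 and 273, and with the replicate block 5324, 127, 1125, 4997 and 2377. Counts in Py2T LT and PyMT-1099 LT were 8 and 18 with a pseudocount of 0.1, 30 and 125 with no filter, and 6 and 13 with edgeR, while DESeq2 called 33 in Py2T LT. The mean had 856 with edgeR, and the difference between lines had 58 with a pseudocount of 0.1 and 20 with edgeR. Leaving out a library gave 576 to 2664 in MT∆Ecad, 5 to 11 in Py2T LT, 7 to 67 in PyMT-1099 LT, 660 to 2126 in the mean and 29 to 189 in the difference between lines.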

Other observations

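Long noncoding RNAs were also tested as a class. Of the 329 RefSeq long noncoding RNAs tested, limma called 207 (62.9%) between MT∆Ecad and PyMT-1099 LT in siCtl cells, 177 (53.8%) between MT∆Ecad and Py2T LT, and 189 (57.4%) between Py2T LT and PyMT-1099 LT, beside 57.6%, 54.4% and 55.6% of all tested genes. For the siNrf2 effect limma, edgeR and DESeq2 called 0 of the 329 in Py2T LT and 0 in PyMT-1099 LT, with 14 and 28 at an unadjusted p under 0.05 in limma. In the mean of the lines limma called 13 (3.95%), and in the test of a difference between lines 5 (1.52%), beside 12.3% and 2.18% of all tested genes. With the replicate block, 98 (29.8%) were called in MT∆Ecad and 96 (29.2%) in the mean, beside 42.6% and 40.0% of all tested genes. Xist stood at 734.1 and 699.9 CPM in siNrf2 libraries of MT∆Ecad, against 918.6 and 733.8 CPM in siCtl libraries. For Py2T LT the levels were 377 and 870 CPM in siNrf2 libraries, against 456.9 and 790.7 CPM in siCtl libraries. For PyMT-1099 LT the levels were 192.3 and 462.5 CPM in siNrf2 libraries, against 302.3 and 508.6 CPM in siCtl libraries.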
